A study of Rattus norvegicus with 9 samples.

Results

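The effect of miR-483-5p mimics on the transcriptome of injured PC12 cells was examined by setting 3 libraries of cells given mimics before OGD/R against 3 libraries of cells given OGD/R alone. PC12 is a rat pheochromocytoma line, here in a differentiated state, that serves as a cell model of neurons, and OGD/R is oxygen and glucose deprivation followed by reperfusion. These 6 of the 9 libraries in the series were chosen by their labels, and the 3 control libraries stayed outside the test. In both groups, deprivation lasted 4 h in medium without glucose at 1% O2, and reoxygenation in normal medium lasted 6 h. The mimic group was transfected with miR-483-5p mimics 48 h before deprivation. The labels name no transfection for the OGD/R group, so transfection itself and the miRNA cannot be told apart in this comparison. Nor do they say whether replicates came from separate cultures, so the p-values measure the spread between these libraries, which may be technical.

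MicroRNAs are short RNAs that guide Argonaute proteins to messenger RNAs, usually through pairing between the seed at the 5′ end of the miRNA and sites in the 3′ untranslated region of the message. Paired messages are translated less and often degraded sooner, so the messages that a transfected mimic targets directly usually fall, and most do so modestly. Genes further downstream can move either way. The mature rat sequence is printed because its seed defines which messages the mimic could pair with. It lies at chr1:207247903-207247924 on the minus strand (RefSeq, build GRCr8), inside the span of Igf2, the gene of insulin-like growth factor 2. The seed, bases 2 to 8, is in capitals, and miR-483-5p is the only one of 724 mature rat miRNAs in the RefSeq list that carries it.
rno-miR-483-5p: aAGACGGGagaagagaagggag
The sequence of the transfected oligonucleotide is not given in the sources used here. The labels describe poly-A mRNA libraries, which do not report a mature miRNA, so the mimic level was not checked in these libraries.

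Expression was deposited as FPKM, a level of fragments per transcript that is corrected for transcript length and library size. Each library lists 23426 features, of which 22037 have Ensembl rat identifiers and 1389 are assembled loci. The identifiers are not paired with symbols, so PC12 markers, the study's candidate targets and pathway genes were not analysed here, and the results below concern features rather than named genes. Of the features, 19119 were above 0 in at least 1 of the 6 libraries and were tested. A feature was called well expressed when its mean over the 6 libraries was at least 10 FPKM, which 6933 features met, 6755 with Ensembl identifiers and 178 assembled loci. The means nearest to this limit were 10.007 FPKM inside and 9.995 FPKM outside. The mean reached 10 FPKM in both groups for 6791 of them, in the OGD/R group alone for 90 and in the mimic group alone for 52. The well expressed features held 96.2% to 96.6% of the summed FPKM of each of the 6 libraries, with a median level of 30.2, 30.9 and 29.6 FPKM in OGD/R replicates 1, 2 and 3 and of 29.5, 28.9 and 30.7 FPKM in mimic replicates 1, 2 and 3. Within each group, replicate 3 lay on the side of the other group's replicates 1 and 2. FPKM is a relative level from bulk RNA, so fewer cells of a kind and less RNA per cell cannot be told apart.

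The libraries numbered 3 stood apart from their groups. Over the well expressed features, OGD/R replicate 3 lay nearer to mimic replicates 1 and 2, and mimic replicate 3 nearer to OGD/R replicates 1 and 2, than each did to its own group. The differences and limits below use the labels as given and presume that they are right, and the main values are also given without these libraries.

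With the labels as given, the well expressed features differed little between mimics and OGD/R. Their levels in all 6 libraries lay within a 2-fold range for 6724 features (97.0%). The median absolute log2 fold change between the group means was 0.084 (0.157 without both libraries numbered 3), the 95th percentile was 0.289 and the 99th percentile 0.449, where 1 is a 2-fold difference. An absolute difference of at least 1 was found for 8 of the 6933 features, 4 higher and 4 lower with mimics. As a measure of scale, and with no test, the same OGD/R libraries differed from the controls by at least 1 for 861 of these features (12.4%), with a median absolute difference of 0.399 over all 6933.

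With limma on log2(FPKM + 0.1) and Benjamini-Hochberg adjustment over all 19119 features, 0 features had an adjusted p under 0.05, which is 0% of the features tested and 0 of the well expressed. An unadjusted p under 0.05 was reached by 377 well expressed features (5.44%), beside 894 of all features tested (4.68%). Without OGD/R replicate 3 the well expressed number was 1020 (14.7%, beside 11.3% of all features tested). Without mimic replicate 3 it was 345 (4.98%, beside 5.1% of all), and without both libraries numbered 3 it was 1697 (24.5%, beside 18.8% of all). Of the 377, 119 were higher and 258 lower with mimics, beside 2.42% and 2.25% of all features tested. This balance depended on scaling, since the share that was higher was 31.6% on the deposited scale, 38.6% once libraries were quantile normalized and 75.3% once they were scaled to their upper quartiles, while the median log2 fold change of the well expressed features was -0.02, -0.01 and 0.05. No direction was therefore read from it. The 3 OGD/R and 3 mimic libraries did not overlap for 740 well expressed features (10.7%), 252 higher and 488 lower with mimics, beside 8.54% of all features tested. The study's criteria, which it used with edgeR, ask for a change of 2-fold or more in either direction and an unadjusted p under 0.05. Applied here to the limma results, they held for 3 well expressed features (1 higher, 2 lower), beside 171 of all features tested (0.894%). Of all features tested, 0.586% met them on the higher side and 0.309% on the lower. Without OGD/R replicate 3, 12 well expressed features met them, beside 1.79% of all features tested. Without mimic replicate 3, 1 did (beside 0.957% of all), and without both libraries numbered 3, 28 did (beside 2.97% of all). The count over all features depended strongly on the pseudocount added before the log, with 10 features at a pseudocount of 1 and 349 at 0.01, while that of the well expressed was 2 and 3. The higher one reached 10 FPKM on average in both groups, and the 2 lower ones were well expressed through the OGD/R group alone. Of the 6791 features that reached 10 FPKM in both groups, 358 (5.27%) had an unadjusted p under 0.05. Assembled loci had a median log2 fold change of -0.01 and Ensembl features of -0.02. An unadjusted p under 0.05 was reached by 17 of the 178 assembled loci and 360 of the 6755 Ensembl features.

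**Figure D1:**
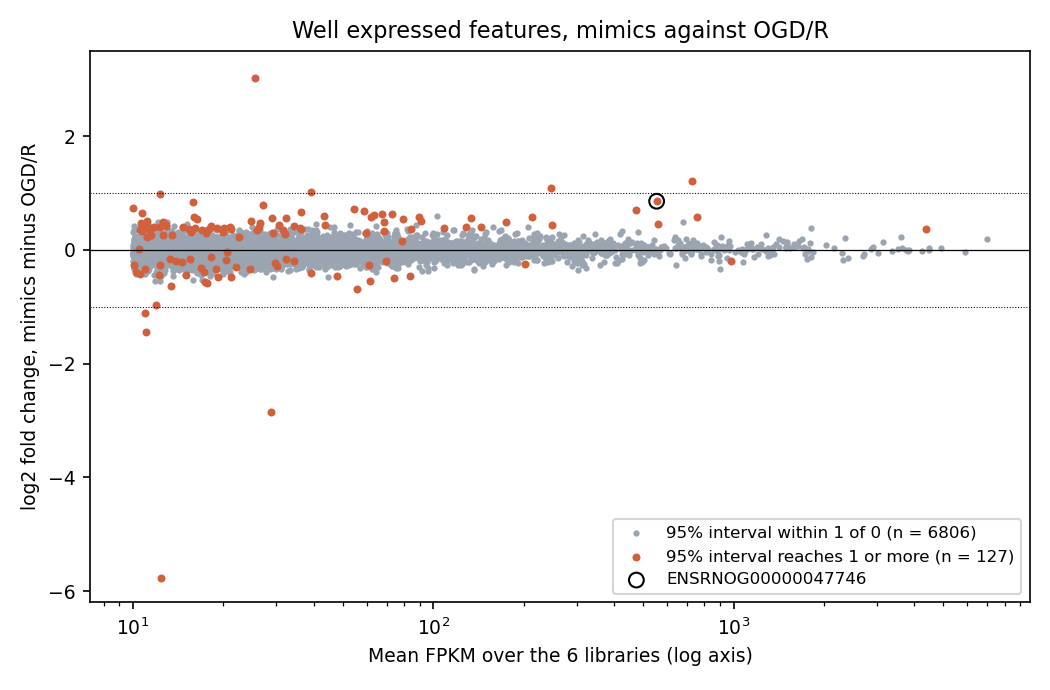
Log2 fold change of mimics minus OGD/R (vertical axis) against mean FPKM over the 6 libraries (horizontal log axis) for the 6933 well expressed features, 1 point each. Grey points have a 95% interval within 1 of 0 (6806 features) and orange points have one that reaches 1 or more (127 features). The circle marks ENSRNOG00000047746.

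The feature with the smallest p stood clear of the spread within both groups. ENSRNOG00000047746, whose function was not looked up because the identifier has no symbol here, was singled out after its values were seen. It was at 386.88, 418.49 and 378.98 FPKM in OGD/R replicates 1, 2 and 3 and at 740.8, 724.4 and 676.13 FPKM with mimics. All mimic libraries, replicate 3 included, were above all OGD/R libraries, replicate 3 included. The OGD/R mean was 394.8 ± 20.9 FPKM (SD, n = 3) and the mimic mean 713.8 ± 33.6 FPKM (SD, n = 3). The control libraries, at 534.98, 772.28 and 646.69 FPKM, were also above the OGD/R libraries and spanned the mimic values. The log2 fold change with mimics was 0.85 (standard error 0.07, 95% interval 0.69 to 1.02), 1.81-fold, with an adjusted p of 0.122 from limma over all features tested. When only features with a mean of at least 1 or at least 10 FPKM were tested, its adjusted p was 0.0309 and 0.0187, and over the other alternatives it ran from 0.0887 to 1. The estimate moved little when a library was left out, from 0.83 to 0.90, and was 0.86 without both libraries numbered 3. Its rank by level among the well expressed features was 184.

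The 3 features that met the study's criteria lay far lower in level. The largest rise among features without overlap was in ENSRNOG00000033024, at 19.94, 35.52 and 23.63 FPKM in the OGD/R libraries and 48.01, 58.53 and 49.75 FPKM in the mimic libraries (log2 difference 1.02, standard error 0.21, 95% interval 0.52 to 1.51, adjusted p = 0.922 from limma). The mimic libraries were all above the OGD/R libraries, and the control libraries, at 21.05, 28.55 and 15.03 FPKM, lay among or below the OGD/R values. ENSRNOG00000045885 was at 19.2, 13.6 and 12.22 FPKM in the OGD/R libraries and at 8.42, 7.83 and 4.67 FPKM in the mimic libraries (log2 difference -1.11, standard error 0.26, 95% interval -1.74 to -0.48, adjusted p = 0.922 from limma). Its mimic libraries were all below the OGD/R libraries and below the controls, which were at 17.01, 13.21 and 10.73 FPKM. With an OGD/R mean of 15.01 FPKM and a mimic mean of 6.97 FPKM, it counted as well expressed only through the group where it was high. ENSRNOG00000051286 was listed at 0 in all mimic libraries, and was at 52.32, 0.04 and 21.93 FPKM in the OGD/R libraries, with 30.32, 0 and 0 FPKM in the controls. Values near 0 and well above 20 FPKM occurred within both the OGD/R and the control group, so no fold change is given for it. It too counted as well expressed only through the OGD/R group. The second largest rise among features without overlap, just under 2-fold, ran from 11.83, 7.34 and 5.91 FPKM in the OGD/R libraries to 12.89, 17.01 and 18.67 FPKM in the mimic libraries (log2 difference 0.99, 95% interval 0.36 to 1.62, adjusted p = 0.922 from limma). Its groups were separated by about 1 FPKM at their nearest libraries, both numbered 1, and it counted as well expressed only through the mimic group (means 8.36 and 16.19 FPKM).

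**Figure D2:**
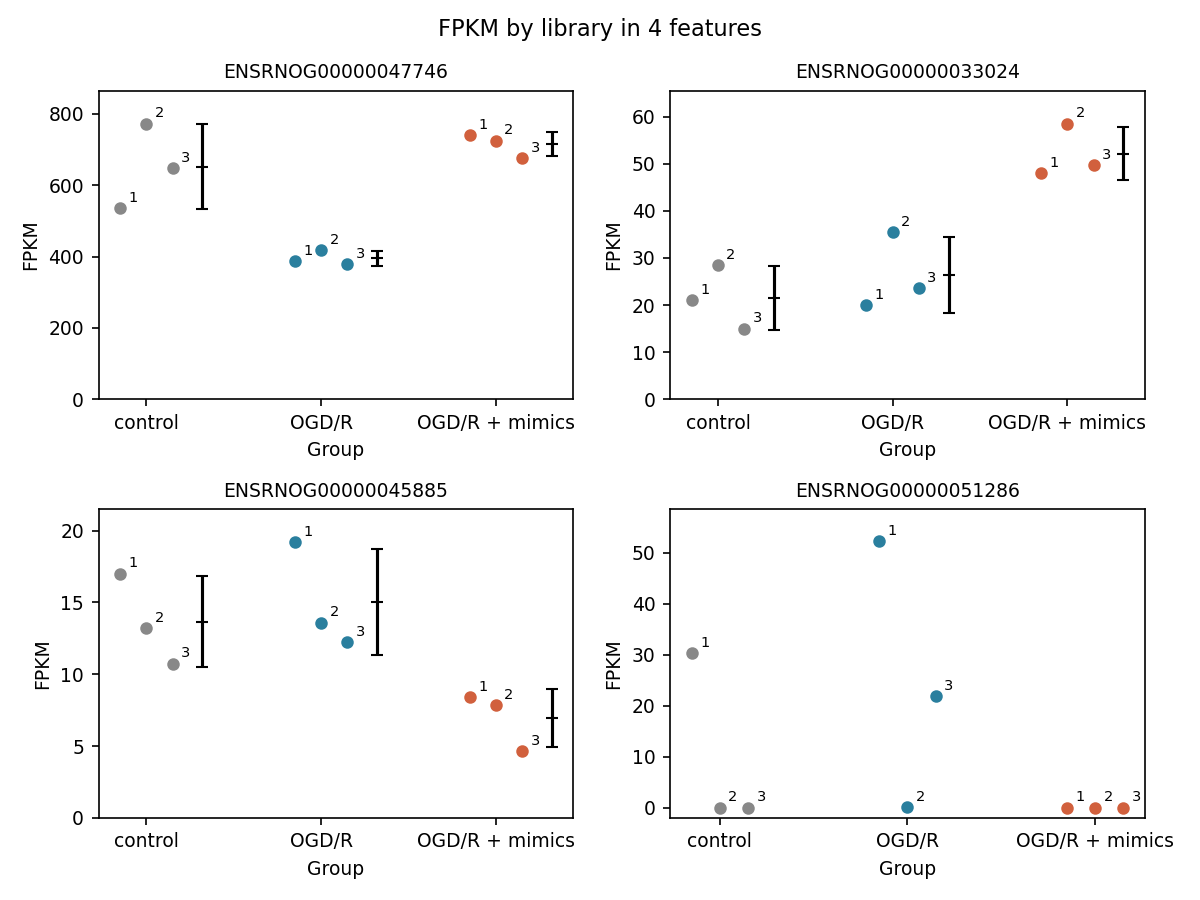
FPKM in each library (vertical axis) for 4 features, in control, OGD/R and mimic libraries (horizontal axis). Points are libraries with their replicate number, and bars show the mean ± SD of 3 libraries, left out for ENSRNOG00000051286, which is listed at 0 in 5 of 9 libraries. For ENSRNOG00000047746 the mimic libraries lie between 676.13 and 740.8 FPKM and the OGD/R libraries between 378.98 and 418.49 FPKM.

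The upper limit on a mimic effect was read from the 95% interval of each log2 fold change, as the bound farther from 0. Its median over the well expressed features was 0.332, a 1.26-fold change in either direction, and 0.449 without both libraries numbered 3. For 10% of the features the limit was at most 0.205 (1.15-fold), for 90% at most 0.611 (1.53-fold) and for 99% at most 1.15 (2.22-fold). The interval lay within 0.5 of 0 (1.41-fold) for 5629 features (81.2%), within 1 (2-fold) for 6806 (98.2%) and within 2 for 6921 (99.8%), while over all features tested it lay within 1 for 77.7%. On the side of a fall, the lower bound was above -1 for 6885 well expressed features (99.3%) and above -0.5 for 6135 (88.5%). These intervals hold for each feature on its own. Intervals made to hold for all 6933 features at once were wider, with a median limit of 1.299 (2.46-fold). They lay within 1 for 1477 features and within 2 for 5764 (83.1%), and they left out 0 for 0 features.

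The median limit narrowed as the level rose. The median limit was 0.398 (1.32-fold) for the 2195 features between 10 and 20 FPKM, 0.329 for the 2560 between 20 and 50 FPKM, 0.284 for the 1106 between 50 and 100 FPKM, 0.264 for the 544 between 100 and 200 FPKM and 0.261 (1.2-fold) for the 528 at 200 FPKM or more. The median residual standard deviation (log2) fell from 0.152 to 0.095 over the same ranges. The share of features with an interval within 1 did not rise steadily, at 97.4%, 98.6%, 98.2%, 99.1% and 97.9% from the lowest range to the highest. Below the threshold, the median limit was 0.637 (1.55-fold) for the 4741 tested features between 1 and 10 FPKM and 0.924 (1.9-fold) for the 7445 under 1 FPKM, where the interval lay within 1 for 82.2% and 55.8%.

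The narrowest interval belonged to a feature at 67.2, 68.98 and 68.55 FPKM in the OGD/R libraries and 69.24, 67.74 and 67.84 FPKM in the mimic libraries, with bounds of -0.12 and 0.12. The most abundant feature was at 7175.41, 6037.82 and 6411.82 FPKM in the OGD/R libraries and 7435.07, 7477.61 and 7363.1 FPKM in the mimic libraries. Its mimic libraries were all above its OGD/R libraries, and its log2 fold change was 0.19 (95% interval -0.08 to 0.45, adjusted p = 0.922 from limma). Of the 10 most abundant features, 9 had an upper limit of at most 0.45 (1.37-fold). The exception was at 3834.23, 2352.57 and 5556.31 FPKM in the OGD/R libraries and 5226.76, 5675.43 and 3571.47 FPKM in the mimic libraries, with a limit of 1.14. In that feature OGD/R replicate 3 lay with mimic replicates 1 and 2, and mimic replicate 3 with OGD/R replicate 1.

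Among the 861 well expressed features that differed at least 2-fold between OGD/R and control, the median absolute difference from control was 1.306 and that between mimics and OGD/R 0.125. The 95% interval of the latter lay within 1 for 788 of them (91.5%), beside 98.2% of all well expressed features. The median limit was 0.466, beside 0.332 of all well expressed features. An unadjusted p under 0.05 was reached by 46 (5.34%), beside 5.44% of all well expressed features and 4.68% of all features tested. Both differences use the same OGD/R libraries, so they are set side by side only.

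The 2 libraries numbered 3 lay closer to the other group than to their own. The median absolute log2 difference over the well expressed features was 0.090 between OGD/R replicate 3 and mimic replicate 1 and 0.122 to mimic replicate 2, but 0.148 to OGD/R replicate 1 and 0.196 to OGD/R replicate 2. Mimic replicate 3 was 0.089 from OGD/R replicate 1 and 0.112 from OGD/R replicate 2, and 0.127 and 0.152 from mimic replicates 1 and 2. The smallest of the 15 differences between libraries, 0.089 and 0.090, thus crossed the labelled groups, and the largest, 0.216, was between OGD/R replicate 2 and mimic replicate 2. The 2 libraries numbered 3 differed from each other by 0.158.

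**Figure D3:**
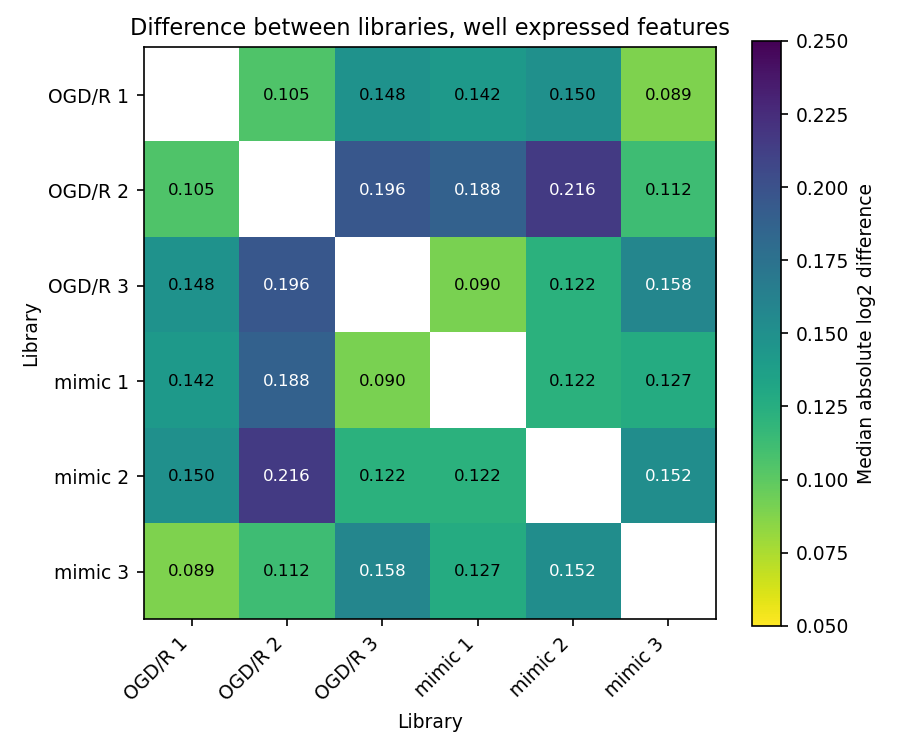
Median absolute log2 difference over the 6933 well expressed features for each pair of the 6 libraries (both axes list the libraries, darker cells are larger differences). OGD/R replicate 3 is nearest to mimic replicate 1 (0.090) and mimic replicate 3 is nearest to OGD/R replicate 1 (0.089).

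Feature by feature, OGD/R replicate 3 was nearer to the mean of mimic replicates 1 and 2 than to that of OGD/R replicates 1 and 2 for 4914 features (70.9%), and mimic replicate 3 was nearer to OGD/R replicates 1 and 2 for 4245 (61.2%). Both held for 3386 features (48.8%), and both libraries were nearer to their own group for 1160 (16.7%). The same measure was taken for each other library against the remaining numbers of both groups. It gave 42.5% and 50.1% for OGD/R replicates 1 and 2, and 46.9% and 54.2% for mimic replicates 1 and 2. The remaining numbers there include replicate 3 of both groups, so these shares are not a like baseline for 70.9% and 61.2%. The deviations of the 2 libraries numbered 3 from replicates 1 and 2 of their own group had opposite signs for 5507 features (79.4%). OGD/R replicate 3 was the higher side in 2106 of these and the lower side in 3401. Of the 174 features at which both deviations were at least 0.5, 171 were opposite. Across the 6933 features, the 2 deviations had a Pearson r of -0.697 and a Spearman rho of -0.775. They share no library, and features are not independent replicates, so the correlation describes these libraries only.

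**Figure D4:**
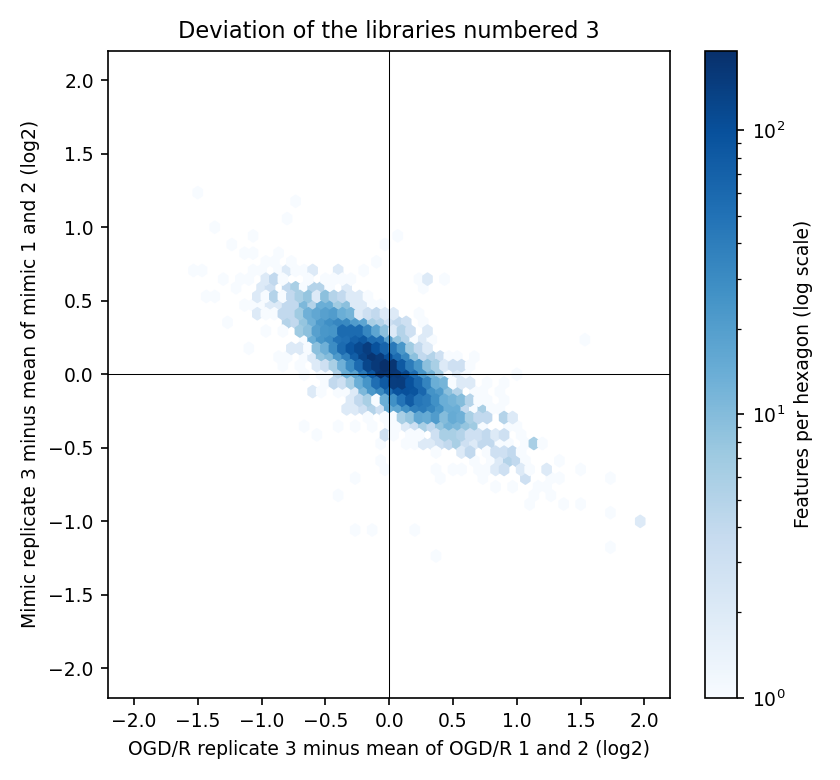
For each well expressed feature, the log2 deviation of OGD/R replicate 3 from the mean of OGD/R replicates 1 and 2 (horizontal axis) and of mimic replicate 3 from the mean of mimic replicates 1 and 2 (vertical axis), as features per hexagon on a log color scale. The cloud runs from the upper left to the lower right (Spearman rho -0.775), and 10 features beyond 2 on either axis are outside the plot.

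The difference between mimics and OGD/R changed with these 2 libraries. For numbers 1, 2 and 3, the median absolute difference of the mimic from the OGD/R library was 0.142, 0.216 and 0.158, so that of number 3 lay between the others. Its direction was opposite, however, to the mean of numbers 1 and 2 for 4810 features (69.4%), whereas numbers 1 and 2 had the same direction for 67.9%. The difference between the group means was 0.084 at the median with all 3 replicates and 0.157 with replicates 1 and 2 alone. The median standard deviation within groups was 0.123 after OGD/R and 0.115 with mimics, against 0.075 among the 3 controls. The deviation of replicate 3 from replicates 1 and 2 made up 70.7% of the squares within the OGD/R group and 59.8% of those within the mimic group. The same share was 20% and 59.3% for OGD/R replicates 1 and 2, and 42.4% and 47.8% for mimic replicates 1 and 2, and these shares overlap and do not add up to the whole. The median absolute deviation from the mean of the other libraries of the group was 0.081, 0.138 and 0.165 for OGD/R replicates 1, 2 and 3, and 0.102, 0.118 and 0.127 for mimic replicates 1, 2 and 3. Within its own group, mimic replicate 3 thus stood little farther out than mimic replicate 2.

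Leaving out both libraries numbered 3 gave more features with an unadjusted p under 0.05, among the well expressed and among all features. As these libraries were known to lie towards the other group, leaving them out tends to widen the difference between groups, and the counts are a description only. Without OGD/R replicate 3, 1020 well expressed features (14.7%) had an unadjusted p under 0.05, beside 11.3% of all features tested, and 12 met the study's criteria, beside 1.79% of all. Without mimic replicate 3, these numbers were 345 (4.98%, beside 5.1% of all) and 1 (beside 0.957% of all). Without both, they were 1697 (24.5%, beside 18.8% of all) and 28 (beside 2.97% of all). In each of these 3 fits 0 well expressed features had an adjusted p under 0.05 from limma, and the smallest adjusted p among them was 0.247, 0.178 and 0.213. Of the 377 features with an unadjusted p under 0.05 from 6 libraries, 234 (62.1%) also had one without both libraries numbered 3, which is 13.8% of the 1697.

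The upper limit was wider, not narrower, without these libraries. Its median was 0.381 without OGD/R replicate 3, 0.400 without mimic replicate 3 and 0.449 (1.36-fold) without both, against 0.332 with 6 libraries. The intervals lay within 1 for 6642, 6572 and 6470 features, and within 0.5 for 69.8%, 66.0% and 58.0%. The fit without both has fewer degrees of freedom, 3.04 with the prior against 6.83, which widens an interval at any given spread. Its median absolute log2 fold change was larger, 0.157 against 0.084, which raises the limit at any given interval width. The median residual standard deviation (log2) was smaller in that fit, 0.09729 against 0.1259. How much each of these moved the limit was not tested. With 6 libraries and in each of the 6 fits that left out 1 library, the interval stayed within 1 for 6546 features (94.4%). With 6 libraries and without both libraries numbered 3, it did so for 6468.

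**Figure D5:**
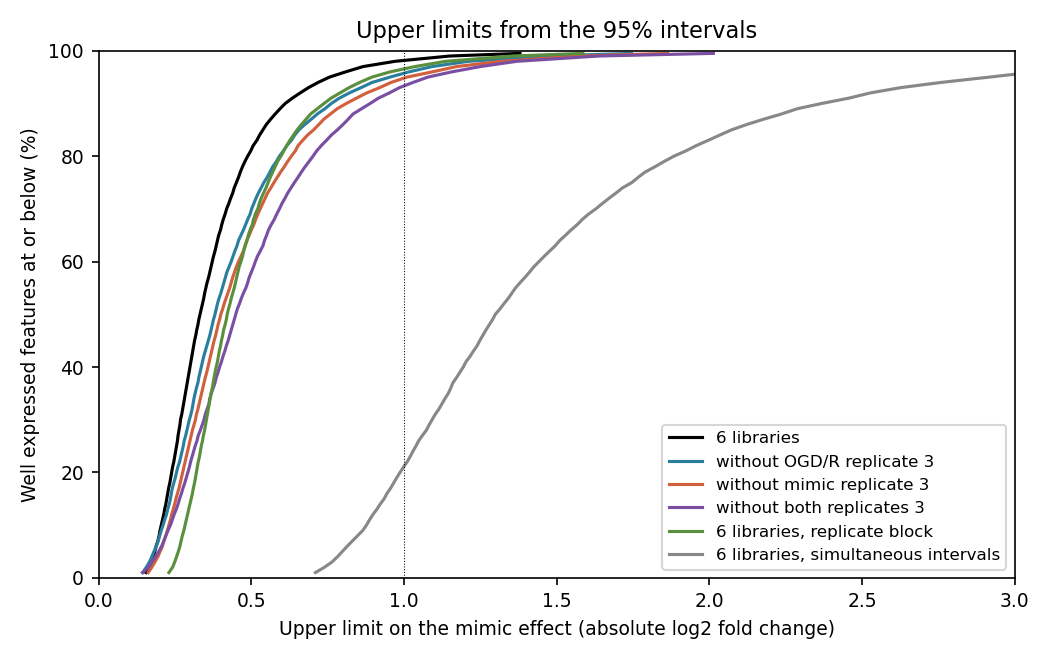
Share of the well expressed features (vertical axis, percent) whose upper limit on the mimic effect is at or below the value on the horizontal axis (absolute log2 fold change). With 6 libraries the median is 0.332 and without both libraries numbered 3 it is 0.449, while intervals made to hold for all features at once have a median of 1.299.

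At the features whose limit was 1 or more, 127 in all, the deviations of the libraries numbered 3 had opposite signs in 86.6%, beside 79.4% of all well expressed features, with OGD/R replicate 3 high and mimic replicate 3 low in 73 and the reverse in 37. The limit was 2 or more for 12 features, and the signs were opposite in 66.7% of these. Wide limits come with spread within the groups, to which the libraries numbered 3 contribute, so shares at these features are a description only. At 7 of the 12, beside 20.5% of all well expressed features, OGD/R replicate 3 was above both other OGD/R libraries and mimic replicate 3 below both other mimic libraries. The most abundant of the 7 was at 213.35, 116.3 and 1421.35 FPKM in the OGD/R libraries, 950.08, 1322.82 and 348.31 FPKM in the mimic libraries and 4.39, 6.25 and 3.4 FPKM in the controls. Its highest OGD/R library was replicate 3, its lowest mimic library was replicate 3, and all 6 were far above the controls. Its log2 fold change was 1.21 (95% interval -1.03 to 3.45) with 6 libraries and 2.83 (95% interval 1.55 to 4.12) without both libraries numbered 3. A second, at 11.01, 8.37 and 46.9 FPKM in the OGD/R libraries and 34.3, 37.62 and 9.6 FPKM in the mimic libraries, went from 0.50 (95% interval -1.31 to 2.32) to 1.89 (95% interval 1.35 to 2.44). Both were taken from features at which the libraries numbered 3 lay towards the other group, so leaving those out had to widen the difference, and the values are a description only. At 4 of the 12, a library was under 1 FPKM. One of them, which is also among the 7, was at 22.92, 0 and 29.63 FPKM in the OGD/R libraries and at 38.78, 31.65 and 29.39 FPKM in the mimic libraries, with an interval from -1.86 to 7.90. OGD/R replicate 2 was at 0 there, while the other 5 libraries lay between 22.92 and 38.78 FPKM. Whether the labels of the libraries numbered 3 are as intended, and whether culture, transfection or library kit moved with them, was not tested.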

How the data were processed

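The series holds RNA-seq libraries of PC12 cells, 3 in each of 3 groups, mapped to groups and replicate numbers by the sample titles. The authors filtered the reads and named RSEM for the expression levels, and FPKM was deposited for each feature. The submitters' processing notes name Bowtie2 (2.3.3.1) and Cufflinks (2.2.1) without a role, and the genome build is not given in the sources used here. Read counts were not used here, so depth is unknown. The labels name 2 library kits without assigning them to libraries. One culture detail is not reported here.

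FPKM are not counts, so limma (3.58.1, R 4.3.3) was fitted to log2(FPKM + 0.1) with a mean-variance trend in the 6 libraries (4 residual degrees of freedom). Printed log2 differences are on that scale and are too small for features of low level. Tests were two-sided, p-values were Benjamini-Hochberg adjusted, and intervals are moderated 95% intervals. The fit was tested on simulated data. The comparison and its lists were chosen with earlier results of these data known. Identifiers were to be printed for at most 2 features each way, those with the largest change among well expressed features without overlap and with an unadjusted p under 0.05. The second rise is not printed, and ENSRNOG00000047746 was added after its values were seen. The 23 planned gene lists and the planned description of seed sites were not run, because 0 of 23426 identifiers matched the RefSeq table and 3′UTR sequences were not used here.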

Additional observations from a re-analysis of the deposited data

How the results depend on the processing

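Alternatives were pseudocounts of 1 and 0.01, testing only features with a mean of at least 1 or 10 FPKM, 2 scalings, a fit of all 9 libraries, a replicate block, other limits for well expressed features (5 and 20 FPKM), simultaneous intervals, and leaving out libraries. With only features of at least 1 or 10 FPKM tested, 1 feature had an adjusted p under 0.05 in either fit, the well expressed ENSRNOG00000047746. These fits adjust for fewer features and also estimate the spread anew, with its unadjusted p at 2.65e-06 and 2.69e-06 against 7.44e-06 from limma with all features. Leaving out each library in turn gave 0 to 1 such features, the 1 without OGD/R replicate 3 at a mean of 3.62 FPKM and the 1 without mimic replicate 2 at 3.35 FPKM, and 0 among the well expressed. Those with an unadjusted p under 0.05 (377) numbered 223 to 1020 over these fits, 1697 without both libraries numbered 3, 614 with 9 libraries and 90 with the replicate block. Over all features (894) they numbered 667 to 2165, 3587, 1333 and 408 in the same fits. With 1 library left out, the lowest number, 223, came without OGD/R replicate 2 and the highest, 1020, without OGD/R replicate 3. Those meeting the study's criteria (3) numbered 1 to 12, with 1 without OGD/R replicate 1 and without mimic replicate 3, and 28 without both libraries numbered 3, 5 from a mean of 5 FPKM and 1 from a mean of 20 FPKM. Features with an interval within 1 numbered 6572 to 6809 when 1 library was left out and 1477 with simultaneous intervals, whose median limit was 1.299. The median limit ran from 0.353 to 0.400 and the median absolute log2 fold change from 0.068 to 0.123 when 1 library was left out, and the latter was 0.157 without both libraries numbered 3, against 0.084 with 6 libraries. The cause of these changes was not tested. Over all features, those meeting the study's criteria (171) numbered 27 when only features of at least 1 FPKM were tested, 132 to 342 when 1 library was left out, the highest for OGD/R replicate 3, and 567 without both libraries numbered 3.

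The labels do not say whether libraries of the same number share more than the number, and a shared batch was not tested. The correlations across features of their deviations were -0.295, -0.443 and -0.697, and 0 of the 3 OGD/R libraries correlated best with the mimic library of its own number. The log2 fold changes of the features named by identifier, and of the second largest rise, kept their direction under each alternative that was run. All had no overlap between the groups when they were picked, so leaving out libraries or changing the pseudocount could not have reversed them. Depth is unknown, which limits statements below 10 FPKM.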
